A study of Homo sapiens with 20 samples.

Results

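*ADAR* knockout (KO) was examined in A549 cells, a human lung adenocarcinoma cell line, under stimulation with interferon-β (IFN-β). The 4 libraries, of 20 in the series, were those whose labels name A549 and treatment with IFN-β at 10 ng/mL for 24 h. All 4 came from cells with lentiviral Cas9 and the same IFN-β treatment. They differed in the single guide RNA (sgRNA). There were 2 libraries with sgRNAs against *GFP*, the control, and 2 with sgRNAs against *ADAR*. The matching 4 vehicle libraries of A549 (sterile water for 24 h) and 4 untreated libraries of NCI-H1650, another lung adenocarcinoma line, served for comparison. The cells were transduced pools, and the counts do not tell a transcript with a CRISPR-induced mutation from an intact transcript. The 2 libraries of a group differ in the sgRNA, and a figure legend of the study gives a single sample. The p values below therefore measure the spread between libraries with different sgRNAs, pooled over the groups of a fit. They do not measure the spread between repeats of the experiment. Differences due to the sgRNA and to the library cannot be told apart.

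ADAR1, the product of *ADAR*, converts adenosine to inosine in double-stranded RNA. This marks the cell's own RNA as self, and without it unedited duplexes can engage the sensors MDA5 (*IFIH1*) and RIG-I and the kinase PKR (*EIF2AK2*). MDA5 and RIG-I signal through MAVS to IRF3 and NF-kB, which switch on interferon and cytokine genes, whereas PKR phosphorylates eIF2α and slows translation, which favours ATF4 and its stress targets. Interferon itself raises the level of the sensors, of PKR and of the interferon-inducible form of ADAR1.

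*ADAR* (ENSG00000160710, chr1:154554171-154600489 of GRCh37, minus strand) checked the labels. Its level, in CPM (reads per gene relative to all reads on genes) scaled between libraries by the TMM method, was 1220 with GFP sgRNA 1 and 1190 with GFP sgRNA 2. It was 691 with ADAR sgRNA 1 and 895 with ADAR sgRNA 2, so both KO libraries lay below both controls. On the log2 scale the KO group was at −0.60 relative to the controls (standard error 0.13). The quasi-likelihood test of edgeR gave an adjusted p = 0.00148 (Benjamini-Hochberg). DESeq2 gave −0.61 with an adjusted p of 0.085. With vehicle, *ADAR* fell by 1.08 on the log2 scale (edgeR adjusted p = 9.98e-05), and the difference between the effects with IFN-β and with vehicle was 0.48 (edgeR adjusted p = 0.145). The related editing enzyme *ADARB1* had a log2 fold change of 0.24 with IFN-β (edgeR adjusted p = 0.271).

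Reads on genes numbered 9816883 to 19520189 in the 4 libraries, and the ADAR sgRNA 2 library was the deepest. GFP sgRNA 2 had the highest share of alignments that were not unique, 59.1%, against 39.6% to 44.9% in the other 3. The 2 libraries of a group were not repeats of each other within counting error, since their chi-square over genes was 14 times its degrees of freedom for *GFP* and 8.15 times for *ADAR*. Of 10 markers of A549 epithelium, 8 were above 1 CPM in every library. The keratins *KRT8* and *KRT18* and the aldehyde dehydrogenase *ALDH1A1* were among them, and *EPCAM* and *KRT19* were under 1 CPM. *CDKN2A*, deleted in A549, had no read. Immune markers summed to at most 0.563 CPM in a library, with *PTPRC* and *CD3E* at 0, and 3 endothelial markers to at most 0.312 CPM. The fibroblast markers summed to 29.5 to 63.6 CPM, nearly all of it *COL1A1*, and *DCN* was at 0. In bulk RNA, fewer cells of a kind and less RNA per cell cannot be told apart.

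Of 15449 genes tested with IFN-β, 2622 passed an adjusted p of 0.05 (17%), and 1666 of these rose in *ADAR* KO cells (10.8%) while 956 fell (6.19%). The shares of 10.8% and 6.19% are the background for the counts of gene lists below. The rises were larger. Changes of at least 2-fold were found for 410 rises (2.65%) and 154 falls (0.997%). Changes of at least 4-fold were found for 88 rises (0.57%) and 20 falls (0.129%), and the median log2 fold change was 0.67 for rises and −0.52 for falls, against −0.01 over all genes tested. By kind of gene, 1553 rises and 809 falls were among 12277 protein-coding genes, 66 rises and 23 falls among 1466 long non-coding RNAs, and 2 rises and 95 falls among 821 processed pseudogenes. In 1662 rises and 944 falls, neither KO library overlapped a control library. All genes show such a gap often, with 28.2% having both KO libraries above and 27.5% both below the controls.

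The KO libraries did not move equally. ADAR sgRNA 2 was above sgRNA 1 for 1493 of the 1666 rises (89.6%) and below it for 779 of the 956 falls (81.5%), whereas it was above sgRNA 1 for 51.1% of all genes tested. *ADAR* mRNA itself was higher with sgRNA 2. Without the ADAR sgRNA 2 library 689 genes passed, of which 566 of the rises and 120 of the falls remained. Without GFP sgRNA 2, 1464 genes passed, with 1005 of the rises and 286 of the falls. The rises and the falls also differed in base composition. The median GC content of the canonical transcript was 44.2% for rises, 56.9% for falls and 48.5% for all genes tested, and the median length was 4254, 2224 and 2903 bases. A GC-linked difference was also present between the 2 controls. The ratio of GFP sgRNA 2 to GFP sgRNA 1 had a Pearson r of 0.441 with GC content. The log2 fold change had −0.243 with IFN-β and −0.043 with vehicle, and the ratio of ADAR sgRNA 2 to ADAR sgRNA 1 had −0.141. With offsets for GC content and length, an alternative chosen after seeing the data, 1539 genes rose and 1267 fell, which included 1303 of the rises and 670 of the falls above.

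**Figure D1:**
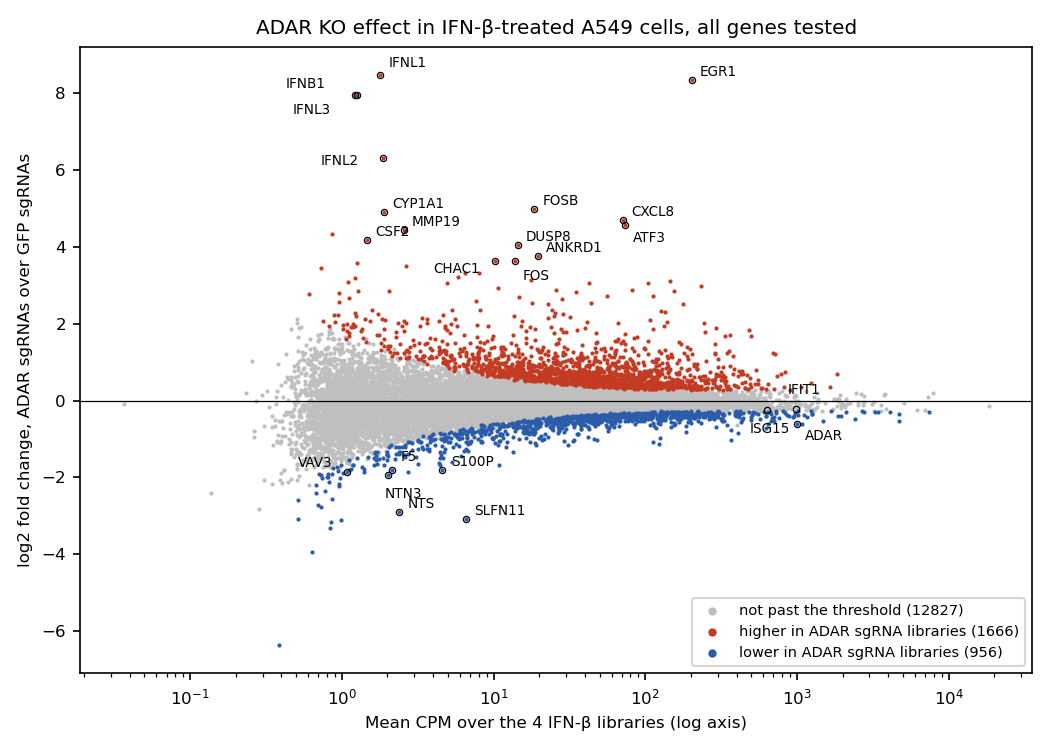
Mean CPM over the 4 IFN-β libraries (x axis, log scale) against the log2 fold change between *ADAR* and *GFP* sgRNAs (y axis), 1 point per gene tested. The 1666 rises are red, the 956 falls blue and the 12827 genes not past the threshold grey. Interferon genes and *EGR1* stand at the top, interferon-stimulated genes such as *IFIT1* and *ISG15* lie near 0, and fitted values of *IFNB1*, *IFNL1* and *IFNL3* depend on the prior count since the controls had no read.

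The interferon genes went from at most 1 read in the controls to 15 or more in each KO library. *IFNB1* (ENSG00000171855, chr9:21077103-21077941 of GRCh37, minus strand) encodes IFN-β, and the recombinant protein in the medium adds no such RNA. It had 0 reads in both GFP libraries and in all 4 vehicle libraries. It had 17 reads (1.79 CPM) with ADAR sgRNA 1 and 62 reads (3.23 CPM) with ADAR sgRNA 2. Against a floor of 3 reads over the GFP group, this was at least 24.5-fold higher (edgeR adjusted p = 1.12e-05).

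The type III interferons, which act through their own receptor on epithelia, rose with it. *IFNL1* had 0 reads in both controls and 24 and 88 reads in the KO libraries (2.52 and 4.58 CPM), at least 34.8-fold higher (edgeR adjusted p = 1.59e-06). *IFNL3* went from 0 in both controls to 15 and 64 reads, at least 24.5-fold (edgeR adjusted p = 1.5e-05). *IFNL2* had 1 read with GFP sgRNA 1 and none with GFP sgRNA 2, against 28 and 86 reads, a ratio of 106 with an exact 95% counting interval of 18.7 to 4230 (edgeR adjusted p = 2.37e-06). In each of the 4 genes both KO libraries were above both controls. The 4 genes passed the read filter only through the KO libraries. That gap, and the rise of all 4 genes tested, was therefore fixed by the filter. *IFNL2* and *IFNL3* are near-identical copies, and reads that align to both are not counted, so their levels may be too low. DESeq2 gave no adjusted p for the 4 genes, and its unadjusted p was 0.118 for *IFNB1*, 0.12 for *IFNL3*, 2.12e-05 for *IFNL2* and 1.03e-06 for *IFNL1*. Of the list of 20 type I and III genes only these 4 had enough reads to be tested. *IFNA1* had 1 read in 4 libraries, and *IFNE* had 9 and 6 reads in controls against 2 and 13 in KO.

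Promoters of 4 genes are shown for the motifs they hold, kB sites for NF-kB, IRF motifs for the IRF factors and CArG boxes for the serum response factor. The bases before the annotated start are shown for *IFNB1*, for *TNFAIP3* (an NF-kB feedback gene that rose), for *EGR1* (an immediate-early gene that rose) and for *IFIT1* (an interferon-stimulated gene that did not pass the test). They are RefSeq promoter sequences, located by exact match in GRCh37 at chr9:21077942-21078061 (minus strand), chr6:138188276-138188395, chr5:137801018-137801167 and chr10:91152260-91152379 (plus strand). Capitals mark letters that match a searched motif on either strand, which are kB sites, CArG boxes, the interferon response core (GAAA, any 2 bases, GAAA) and the shorter IRF core (AA, any 2 bases, GAAA) that overlaps it.
IFNB1: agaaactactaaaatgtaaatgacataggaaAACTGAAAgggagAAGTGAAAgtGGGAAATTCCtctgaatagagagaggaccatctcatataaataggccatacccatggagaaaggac
TNFAIP3: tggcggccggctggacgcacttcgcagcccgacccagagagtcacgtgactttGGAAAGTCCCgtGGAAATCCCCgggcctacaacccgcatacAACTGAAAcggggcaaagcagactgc
EGR1: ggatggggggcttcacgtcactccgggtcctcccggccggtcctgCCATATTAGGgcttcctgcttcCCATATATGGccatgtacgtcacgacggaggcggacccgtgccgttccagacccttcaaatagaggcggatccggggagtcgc
IFIT1: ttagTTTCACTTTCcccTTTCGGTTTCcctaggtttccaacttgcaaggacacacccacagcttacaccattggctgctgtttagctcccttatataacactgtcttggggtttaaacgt
The *IFNB1* stretch holds a kB site beside 2 IRF cores, *TNFAIP3* holds 2 kB sites and an IRF core, *EGR1* holds 2 CArG boxes and *IFIT1* holds 2 interferon response cores, each of which contains an IRF core. Over 250 bases before the start, a kB site was found in 9.27% of the 9991 protein-coding genes tested that had a RefSeq promoter, in 10.7% of 1286 rises, in 17.9% of 67 rises of at least 4-fold and in 8.55% of 655 falls. The interferon response core was found in 2.27% of the tested genes, 3.03% of the rises and 53.1% of 32 core interferon-stimulated genes. The AP-1 letters TGANTCA stood in 3.76% of the tested genes and 4.35% of the rises, and a CArG box in 0.971% and 1.09%. In the 67 rises of at least 4-fold the shares were 5.97% (interferon response core), 8.96% (AP-1) and 2.99% (CArG). The IRF core stood in 17.9% of them and in 14.1% of the tested genes. All these motifs, not the kB site alone, were thus more frequent in the largest rises. A kB site was also found in 15.6% of the 32 core interferon-stimulated genes. Over all 27305 promoters of the table the shares were 7.75% (kB), 3.07% (interferon response core), 20.6% (IRF core), 6.6% (AP-1) and 1.14% (CArG). These matches are letters in a window and not measured binding.

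Most interferon-stimulated genes did not pass the test. *IFIT1*, which binds the ends of foreign RNA, was at 1110 and 1000 CPM in the controls and at 967 and 855 CPM in the KO libraries. *ISG15*, a ubiquitin-like modifier, was at 546 and 826 CPM against 603 and 550 CPM, so the groups overlapped. Neither passed the test, with log2 fold changes of −0.21 (edgeR adjusted p = 0.127) and −0.25 (edgeR adjusted p = 0.157). *MX1* (−0.12) and *OAS1* (−0.18) were likewise not past the threshold. Of 43 core interferon-stimulated genes, all tested, 5 rose (11.6%), 1 fell (2.33%) and 37 did not pass, with a median log2 fold change of −0.03. These shares were near those of all genes tested, 10.8% and 6.19%. In the same GFP libraries set against vehicle, 43 of 43 rose with a median of 5.51, where 880 of all genes tested passed (5.7%) and 678 rose (4.39%). The 2 comparisons share the GFP IFN-β libraries.

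*IRF1*, a transcription factor that NF-kB also induces, was the member that rose most, from 87.3 and 99.3 CPM to 169 and 199 CPM (log2 fold change 0.98, edgeR adjusted p = 2.62e-07). *IFIT5* (0.38), *RSAD2* (0.35), *OASL* (0.31) and *STAT2* (0.31) rose and *UBE2L6* (−0.28), the E2 enzyme of ISG15, fell. Of these 6, *IRF1* alone kept its call without ADAR sgRNA 2. In MHC class I and peptide loading, 1 of 17 genes tested fell (5.88%, near the 6.19% of all genes tested) and none rose, with a median of −0.04. The member was the immunoproteasome subunit *PSMB9* (143 and 165 against 122 and 111 CPM, log2 fold change −0.40, edgeR adjusted p = 0.012), and it did not pass without ADAR sgRNA 2 (−0.34, edgeR adjusted p = 0.213) or GFP sgRNA 2 (−0.29). *HLA-B* and *B2M* had log2 fold changes of −0.02 and 0.12.

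Of the sensors, *EIF2AK2* and *IFIH1* did not pass the test and *RIGI* rose. *EIF2AK2* was at 668 and 552 CPM in the controls and 594 and 617 CPM in the KO libraries (log2 fold change −0.01, edgeR adjusted p = 0.956). *IFIH1* was at 234 and 230 against 216 and 234 CPM (−0.04, edgeR adjusted p = 0.837). In both genes the groups overlapped. Of 14 genes of double-stranded RNA sensing tested, 4 rose (28.6%, against 10.8% of all genes tested) and none fell, with a median of −0.01. *IKBKE*, a kinase of the IRF3 pathway, rose from 17 and 22.3 to 41.3 and 53.7 CPM (1.27, edgeR adjusted p = 2.04e-06). *RIGI*, the gene of RIG-I, rose from 643 and 555 to 879 and 1040 CPM (0.68, edgeR adjusted p = 1.69e-05). The adaptor *TICAM1* (0.76) and the kinase *TBK1* (0.48) rose but lost their calls without ADAR sgRNA 2 (edgeR adjusted p = 0.191 and 0.51). *TICAM1* also lost it without GFP sgRNA 1 (0.42, edgeR adjusted p = 0.21) and *TBK1* without GFP sgRNA 2 (0.28, edgeR adjusted p = 0.276). The adaptor *MAVS* had a log2 fold change of −0.09. In the receptor and JAK-STAT list 3 of 14 rose (21.4%), the feedback inhibitors *SOCS3* (1.52) and *SOCS2* (0.81) and the receptor chain *IFNGR2* (1.06).

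**Figure D2:**
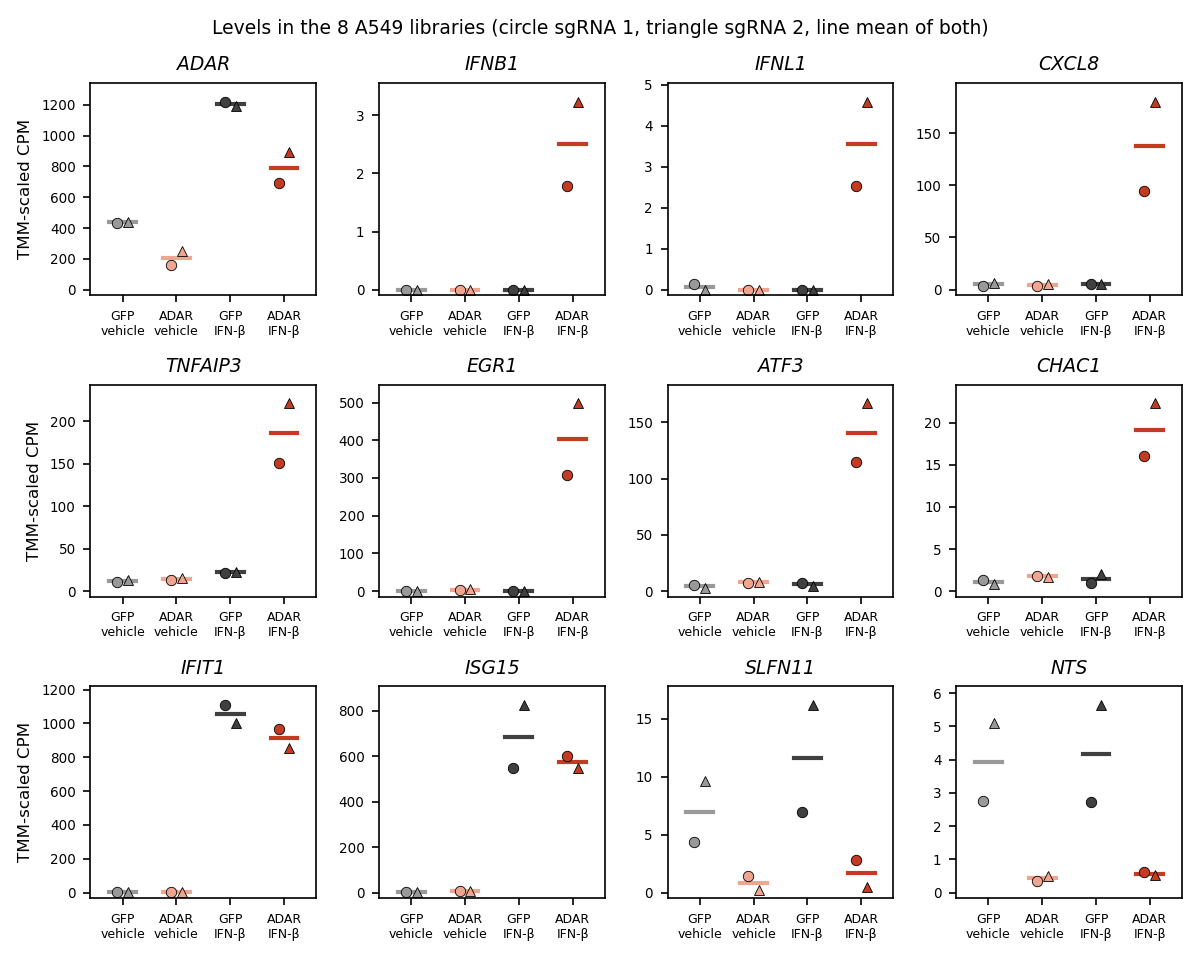
TMM-scaled CPM (y axis, from 0) of 12 genes in the 8 A549 libraries, by sgRNA target and treatment (x axis), with circles for sgRNA 1, triangles for sgRNA 2 and a line for their mean. *IFNB1*, *IFNL1*, *CXCL8*, *TNFAIP3*, *EGR1*, *ATF3* and *CHAC1* are high only in the 2 *ADAR* IFN-β libraries, *IFIT1* and *ISG15* are high in all 4 IFN-β libraries, and *SLFN11* and *NTS* are low in all 4 *ADAR* libraries.

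Chemokines and cytokines rose as groups of named genes. *CXCL8* (ENSG00000169429, chr4:74606236-74609433), the neutrophil attractant IL-8, was at 5.35 and 5.34 CPM in the controls and at 95 and 180 CPM in the KO libraries. This was 25.9-fold (log2 fold change 4.69, standard error 0.24, edgeR adjusted p = 3.9e-15), with no overlap between the groups. All 5 neutrophil chemokines tested rose, with a median of 1.60. *CXCL3* went from 6.66 and 7.95 to 18 and 32.8 CPM (1.81), *CXCL1* from 33.5 and 32.9 to 81 and 118 CPM (1.60) and *CXCL2* from 24.9 and 27.5 to 56.1 and 77.7 CPM (1.36). *CXCL5* (0.39) lost its call without ADAR sgRNA 2 (0.31, edgeR adjusted p = 0.152) and with the GC and length offsets (0.15, edgeR adjusted p = 0.221).

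Chemokines of lymphocytes and monocytes were fewer. *CCL20*, the ligand of CCR6, rose from 1.03 and 1.80 to 10.4 and 18.9 CPM (log2 fold change 3.33, edgeR adjusted p = 1.68e-08) and *CCL5* from 2.53 and 1.86 to 7.36 and 8.13 CPM (1.84, edgeR adjusted p = 0.000385). *CCL2* rose by 0.67 (0.40 without ADAR sgRNA 2, edgeR adjusted p = 0.295), and *CXCL16* fell by 0.55 (edgeR adjusted p = 0.348 without that library, 0.0801 without ADAR sgRNA 1 and 0.38 without GFP sgRNA 2). The interferon-induced *CXCL10* was too low to test, with 4 and 19 reads in the controls and 6 and 14 in the KO libraries. *CXCL11* had 2 and 10 against 2 and 23 reads, and *CXCL9* had none.

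Of 13 inflammatory cytokines tested, 8 rose and none fell, with a median of 1.12. *IL6*, which signals through STAT3, rose from 59.6 and 47.5 to 255 and 348 CPM (log2 fold change 2.50, standard error 0.15, edgeR adjusted p = 2.79e-13). *CSF2*, the growth factor GM-CSF, had 1 and 3 reads in the controls against 19 and 69 (4.18, edgeR adjusted p = 0.000222). *IL24* (3.58) and *IL1A* (3.49) rose from under 1 CPM to between 2.21 and 5.36 CPM. *IL11*, abundant in these cells, rose from 214 and 210 to 606 and 907 CPM (1.84), and *IL32* (1.87), *LIF* (1.12) and *IL15* (0.65) also rose. *IL15* did not pass without ADAR sgRNA 2 (0.47, edgeR adjusted p = 0.305) or GFP sgRNA 2 (0.55, edgeR adjusted p = 0.114). In all 8 genes the KO libraries were above the controls. *CSF2* had 6 reads in the 4 vehicle libraries together, so it passed the read filter only through the KO libraries. Its gap and rise were therefore fixed by the filter. *IL24* and *IL1A*, under 1 CPM in the controls, may have passed it in the same way. *TNF* had no read in the controls and 2 and 3 reads in the KO libraries, and *IL1B* had 0 and 4 against 3 and 4, which at this depth shows no detectable difference.

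NF-kB genes rose almost throughout. Of 19 subunits and feedback regulators tested, 17 rose and none fell, with a median of 1.23. *TNFAIP3*, the gene of the deubiquitinase A20, rose from 21.9 and 22.4 to 151 and 221 CPM (log2 fold change 3.07, standard error 0.15, edgeR adjusted p = 1.52e-15). *TRAF1* rose from 30.5 and 30.7 to 207 and 316 CPM (3.10, edgeR adjusted p = 1.52e-15). The regulators *NFKBIE* (2.01), *NFKBIZ* (1.88), *BIRC3* (1.70) and *NFKBIA* (1.23) rose with the subunits *RELB* (1.36), *NFKB2* (1.28), *REL* (1.25), *NFKB1* (1.18) and *RELA* (0.51). *RELA* did not pass without ADAR sgRNA 2 (edgeR adjusted p = 0.059). Of the 17 rises 14 remained without ADAR sgRNA 2 and 17 without GFP sgRNA 2.

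Among ligands for immune cells, 5 of 16 rose and none fell. Of these, *ICAM1* was under 1 CPM in the controls and may have passed the read filter only through the KO libraries. *CD274*, the gene of PD-L1, rose from 25.7 and 18.3 to 65.6 and 80.5 CPM (log2 fold change 1.75, edgeR adjusted p = 1.74e-09). The adhesion molecule *VCAM1* rose from 11.8 and 12 to 26.5 and 32.7 CPM (1.32, edgeR adjusted p = 3.92e-06). *ICAM1* was scarce, at 0.469 and 0.373 against 2.10 and 1.98 CPM (2.27), and did not pass without ADAR sgRNA 2 (edgeR adjusted p = 0.114) or GFP sgRNA 2 (edgeR adjusted p = 0.119). The NKG2D ligand *MICA* (0.72, edgeR adjusted p = 0.0656 without ADAR sgRNA 2) and the nectin-like *PVR* (0.56) rose as well.

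Immediate-early genes, which respond to signalling without new protein synthesis, held several of the largest changes. *EGR1* (ENSG00000120738, chr5:137801168-137804992) was at 1.59 and 0.994 CPM in the controls and at 309 and 498 CPM in the KO libraries, 324-fold higher (log2 fold change 8.34, standard error 0.26, edgeR adjusted p = 2.84e-20). Of 9 EGR and NR4A genes tested, 7 rose and none fell. *NR4A3* rose from 7.78 and 6.15 to 32.9 and 44.4 CPM (2.50). *EGR2* had 1 read in each control and 11 and 41 in the KO libraries (edgeR adjusted p = 0.000746, and 0.0837 without ADAR sgRNA 2). *EGR4*, below the filter, had 0 reads in the controls and 9 and 41, at least 15.5-fold higher against the 3-read floor. *EGR3* had only 3 reads in the 4 libraries. *EGR2* had 2 reads in the 4 vehicle libraries together, so it passed the filter only through the KO libraries. Its gap and rise were therefore fixed by the filter.

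The AP-1 family, dimers of FOS and JUN proteins, rose in 8 of 10 genes tested, with none lower. *FOSB* went from 1.41 and 0.931 to 30.9 and 40.8 CPM (log2 fold change 4.98, edgeR adjusted p = 2.8e-14) and *FOS* from 1.5 and 2.55 to 21.1 and 30.1 CPM (3.62, edgeR adjusted p = 8.29e-11). *JUN*, the more abundant partner, rose from 113 and 136 to 391 and 533 CPM (1.89, edgeR adjusted p = 6.26e-13), and *MAFF* by 2.82. All 8 calls remained without any of the 4 IFN-β libraries. Of 11 KLF factors 6 rose, led by *KLF10* (2.03), *KLF6* (1.79) and *KLF4* (1.79).

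Feedback on MAP kinases moved in the same direction. Of 9 dual-specificity phosphatases tested, 7 rose and none fell. *DUSP8*, which acts on JNK and p38, rose from 0.563 and 2.48 to 21.3 and 33.3 CPM (log2 fold change 4.04, edgeR adjusted p = 5.18e-10). The ERK phosphatases *DUSP6* (2.69) and *DUSP5* (1.48, from 154 and 152 to 386 and 470 CPM) rose too. Without ADAR sgRNA 2 or GFP sgRNA 2, 4 of the 7 calls remained. Of 13 EGFR ligands and feedback genes, 8 rose. *HBEGF* (2.18), *EREG* (1.21) and *AREG* (1.04) are ligands, and *SPRY2* (2.07) is an inhibitor. The Hippo pathway targets *CCN2* (1.49) and *CCN1* (1.17) and the laminin chain *LAMB3* (1.03) were among 9 rises in 23 matrix genes, while *COL1A1* fell by 0.68 (by 0.30 without GFP sgRNA 2, edgeR adjusted p = 0.255). *ANKRD1*, another Hippo target, rose from 2.34 and 3.04 to 23.8 and 49.3 CPM (3.75, edgeR adjusted p = 1.05e-10).

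The 15 largest rises and falls were taken among protein-coding genes with a mean of at least 1 CPM and no overlap between the groups. Of these rises *CYP1A1* and *MMP19* were in no list. *CYP1A1*, an aryl hydrocarbon receptor target, had 1 and 2 reads in the controls against 38 and 64, a ratio of 31.7 with an exact 95% counting interval of 10.5 to 156 (edgeR adjusted p = 5.76e-06). It was the member of the 15 in which sgRNA 1 lay above sgRNA 2, at 3.99 against 3.33 CPM. The matrix protease *MMP19* rose from 0.188 and 0.248 to 3.47 and 6.35 CPM (log2 fold change 4.43, edgeR adjusted p = 2.09e-06). *CYP1A1* had 9 reads in the 4 vehicle libraries together, so it passed the read filter only through the KO libraries. Its gap and rise were therefore fixed by the filter, and *MMP19* may have passed in the same way. DESeq2 gave no adjusted p for *CYP1A1*, *MMP19*, *CSF2*, *IFNB1*, *IFNL1*, *IFNL2* or *IFNL3*. All 15 passed in each of the 17 alternative fits that gave them an adjusted p.

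Stress genes, several of which the paper lists as ATF4-regulated, formed another group. Phosphorylation of eIF2α was not measured in these libraries. *ATF3* (ENSG00000162772, chr1:212738676-212794119), a stress transcription factor, was at 7.41 and 4.78 CPM in the controls and 115 and 167 CPM in the KO libraries (log2 fold change 4.57, standard error 0.20, edgeR adjusted p = 1.58e-16). *CHAC1*, a glutathione-degrading enzyme and ATF4 target, rose from 0.938 and 1.99 to 16 and 22.3 CPM (3.64, edgeR adjusted p = 4.08e-10). *DDIT3*, the gene of CHOP, rose from 3.28 and 3.91 to 27.9 and 35.6 CPM (3.13, edgeR adjusted p = 4.19e-11). The groups were apart in all 3 genes.

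*PPP1R15A*, the phosphatase subunit GADD34 that reverses eIF2α phosphorylation, rose from 49.4 and 54.8 to 345 and 483 CPM (2.99, edgeR adjusted p = 9.82e-17). *GADD45A* (2.85), *SESN2* (2.65) and *GADD45B* (2.30) also rose, and 14 of 22 genes of the stress list rose with none lower. Each of the 14 calls remained without any of the 4 IFN-β libraries. *ATF4* mRNA, which is controlled mainly in translation, had a log2 fold change of 0.16 (edgeR adjusted p = 0.273). *EIF2S2*, a subunit of eIF2, was the 1 rise (0.35) among 11 genes of the eIF2α kinases and eIF2B. This share, 9.09%, is near the 10.8% of all genes tested. *EIF2S2* did not pass without ADAR sgRNA 2 (0.29) or GFP sgRNA 2 (0.32).

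The lists of amino acid supply and aminoacyl-tRNA synthetases moved less. In amino acid supply 3 of 19 genes rose (15.8%, against 10.8% of all genes tested). They were the transporter *SLC38A2* (log2 fold change 0.87), asparagine synthetase *ASNS* (0.71) and *SLC7A1* (0.29). *SLC7A1* did not pass without ADAR sgRNA 1 (edgeR adjusted p = 0.0563), ADAR sgRNA 2 (0.216) or GFP sgRNA 2 (0.0666). Of 20 aminoacyl-tRNA synthetases 5 rose (25%), led by *CARS1* (0.79). *FARSA* fell (−0.31), which is 5% of the list against 6.19% of all genes tested. *FARSA* did not pass without ADAR sgRNA 1 (edgeR adjusted p = 0.0616), ADAR sgRNA 2 (0.305) or GFP sgRNA 2 (0.252). Of the 5 rises 1 remained without ADAR sgRNA 2. ER chaperones went the other way, with 7 of 19 falling and 1 rising. *CRELD2* fell from 33.3 and 41.6 to 24.1 and 21.4 CPM (−0.74, edgeR adjusted p = 0.00119) and *CALR*, calreticulin, from 671 and 747 to 556 and 511 CPM (−0.41, edgeR adjusted p = 0.00294), while the transcription factor *XBP1* rose (0.97). None of the 7 falls remained without ADAR sgRNA 2, where *CRELD2* had −0.64 (edgeR adjusted p = 0.0587) and *CALR* −0.35 (edgeR adjusted p = 0.0818).

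**Figure D3:**
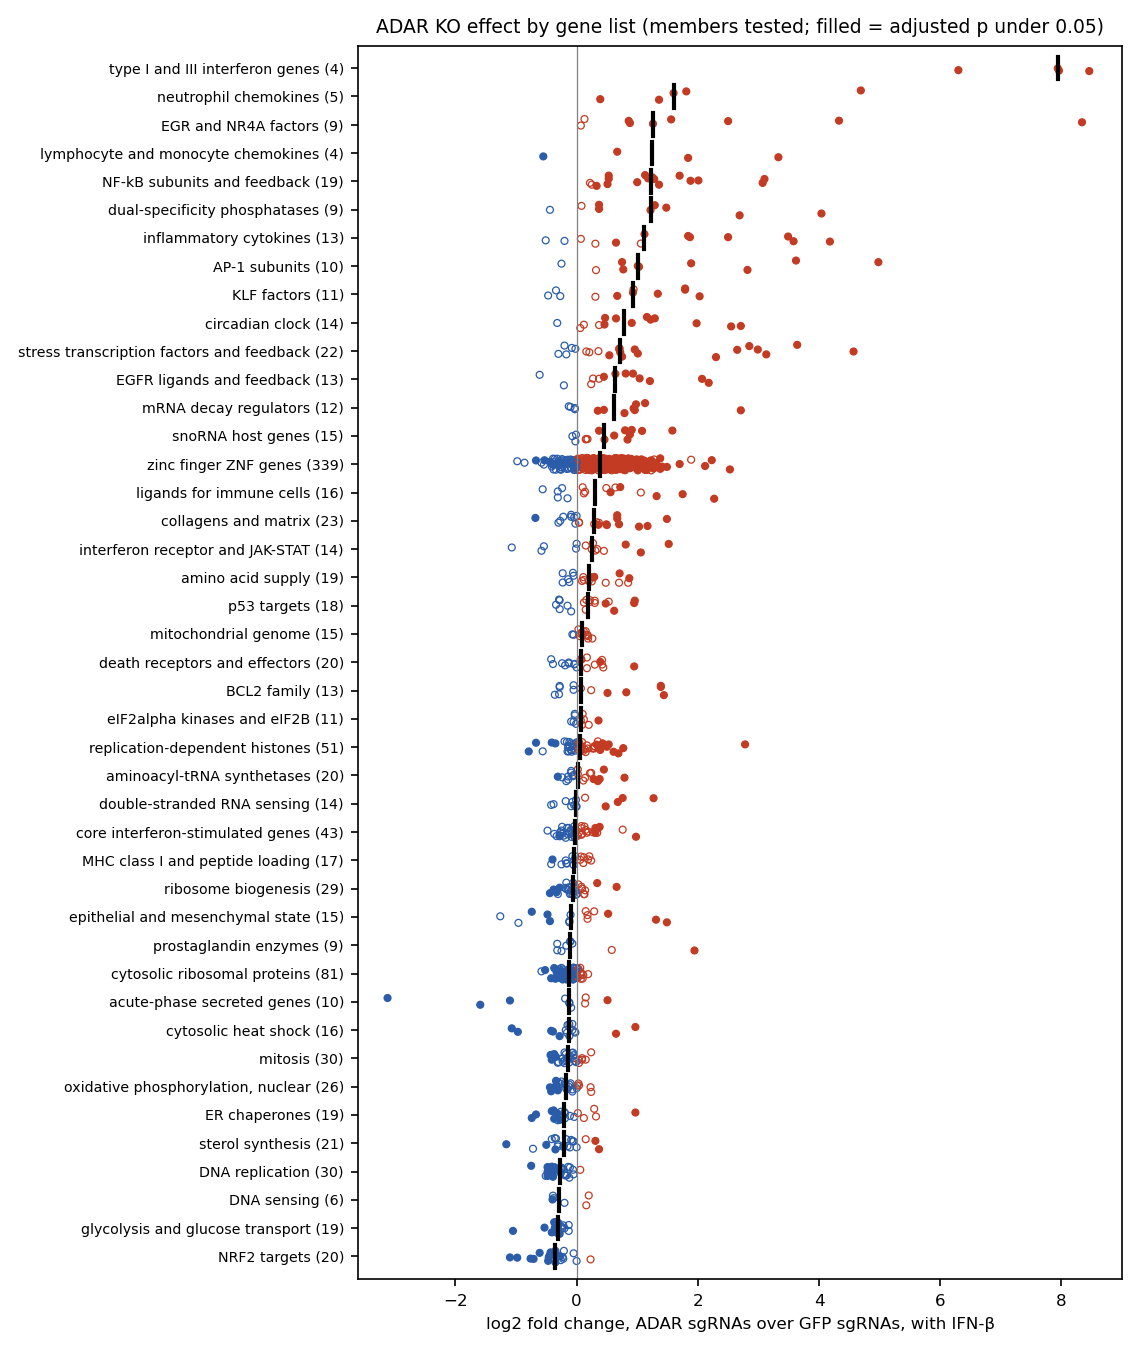
Log2 fold change between *ADAR* and *GFP* sgRNAs with IFN-β (x axis) for the tested members of each gene list (y axis, number tested in parentheses), red above 0 and blue below, filled where the adjusted p is under 0.05, with a black bar at the median. Interferons, chemokines, NF-kB, EGR, AP-1 and phosphatase lists lie to the right, interferon-stimulated and MHC genes around 0, and NRF2 targets, glycolysis and DNA replication to the left.

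Regulators of mRNA stability and of the clock rose. *NOCT*, a phosphatase with a circadian rhythm of expression, went from 30.7 and 28.9 to 165 and 225 CPM (log2 fold change 2.71, edgeR adjusted p = 2.21e-15), and 8 of 12 mRNA decay regulators rose with none lower. *PER1* went from 13.8 and 15.8 to 84.4 and 110 CPM (2.71, edgeR adjusted p = 2.8e-14) and *NR1D1* from 13.2 and 12.6 to 65.2 and 85 CPM (2.55, edgeR adjusted p = 3.06e-13). Of 14 clock genes 10 rose, repressors such as *CRY1* (1.29) and *NR1D2* (0.91) as well as the activators *BMAL1* (0.65) and *CLOCK* (0.46), and 5 of the 10 remained without ADAR sgRNA 2. *CLOCK* did not pass without ADAR sgRNA 2 (0.32, edgeR adjusted p = 0.432), without GFP sgRNA 2 (0.19, edgeR adjusted p = 0.508) or with the offsets (0.22, edgeR adjusted p = 0.233), nor *BMAL1* without ADAR sgRNA 2 (edgeR adjusted p = 0.175) or GFP sgRNA 1 (edgeR adjusted p = 0.0726). Of 15 snoRNA host genes 9 rose and none fell, with a median of 0.46. *EPB41L4A-AS1* (1.58), *SNHG12* (1.08) and *GAS5* (0.80, from 147 and 129 to 207 and 269 CPM) carry short open reading frames that tie their decay to translation.

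The zinc finger (ZNF) genes, many of them KRAB repressors, formed the longest list. Of 339 tested, 102 rose and 4 fell, with a median of 0.38. *ZNF697* rose from 5.63 and 5.03 to 24 and 36.9 CPM (2.53, edgeR adjusted p = 1.26e-09) and *ZNF670* by 2.12. Without ADAR sgRNA 2, 33 of the 102 rises remained, and without GFP sgRNA 2, 67. The median GC content of the list was 44.6%, and with the offsets for GC content and length 95 rose and 3 fell.

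Of 13 BCL2 family genes, 5 rose (38.5%, against 10.8% of all genes tested) and none fell, and all 5 remained without any of the 4 IFN-β libraries. The BH3-only genes *PMAIP1* (NOXA) and *BBC3* (PUMA) rose from 20.3 and 21.4 to 51.6 and 61.1 CPM (log2 fold change 1.44, edgeR adjusted p = 2.2e-08) and from 8.35 and 11 to 23.5 and 27.4 CPM (1.39, edgeR adjusted p = 8.29e-06). The survival genes *BCL2A1* (1.39), *MCL1* (0.82) and *BCL2L1* (0.51) rose as well. Of 20 death receptors and effectors 2 rose (10%, near that share of all genes), the TRAIL receptor *TNFRSF10B* (0.95) and the caspase-8 inhibitor *CFLAR* (0.39). *CFLAR* had 0.23 without ADAR sgRNA 2 (edgeR adjusted p = 0.371). *ZBP1*, a sensor of Z-form RNA, was too low to test, with 7 and 20 reads in the controls and 2 and 12 in the KO libraries. Of 18 p53 targets 4 rose (22.2%), *PLK3* (0.96), *TNFRSF10B* (0.95), *AEN* (0.62) and *RRM2B* (0.48). *PLK3* had 0.46 without ADAR sgRNA 2, and *RRM2B* had 0.16 with the GC and length offsets (edgeR adjusted p = 0.421). *CDKN1A* (0.22, edgeR adjusted p = 0.218) and *MDM2* (0.16, edgeR adjusted p = 0.311) did not pass.

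The falls were smaller and included genes that were also low with vehicle. With vehicle 14 genes fell, and 13 of them fell with IFN-β as well. The libraries differ, but the vehicle and IFN-β libraries carry the same sgRNAs and the cell lines were divided between the treatments, so the comparisons are not independent. *SLFN11* (ENSG00000172716, chr17:33677324-33700720, minus strand), a helicase-like restriction factor, was at 6.94 and 16.2 CPM in the controls and 2.84 and 0.469 CPM in the KO libraries. It was 8.53-fold lower (log2 fold change −3.09, standard error 0.50, edgeR adjusted p = 3.97e-05, and 0.0858 by DESeq2). The neuropeptide precursor *NTS* went from 2.72 and 5.65 to 0.631 and 0.521 CPM (−2.91, edgeR adjusted p = 5.88e-05). With vehicle they had log2 fold changes of −3.20 (edgeR adjusted p = 0.0172) and −3.18 (edgeR adjusted p = 0.00893), and the difference between treatments was 0.11 and 0.27. *SLFN11* had −2.05 without ADAR sgRNA 2 (edgeR adjusted p = 0.00793).

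Other large falls were of genes at a few CPM. The amino acid transporter *SLC7A7* fell from 14.4 and 18.6 to 5.47 and 5.05 CPM (log2 fold change −1.67, edgeR adjusted p = 3.78e-05), and *DDC*, aromatic amino acid decarboxylase, from 6.38 and 7.20 to 1.68 and 2.45 CPM (−1.67, edgeR adjusted p = 0.000703). The fibrinogen chains *FGA* (6.10 and 9.69 to 3.26 and 2.24 CPM, −1.59) and *FGG* (8.82 and 10.4 to 3.89 and 4.95 CPM, −1.10) fell. So did *SERPINA1*, α1-antitrypsin, from 12 and 40 reads to 1 and 5 (−3.12, edgeR adjusted p = 0.0021, and −2.40 with 0.119 without GFP sgRNA 2). These were the 3 falls among 10 acute-phase genes tested, where complement *C3* rose (0.51, edgeR adjusted p = 0.00145, and 0.0839 without ADAR sgRNA 2).

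Further genes among the 15 largest falls, with log2 fold changes from −1.94 to −1.50, were *NTN3*, *VAV3*, *S100P*, the coagulation factor *F5*, *EN2*, *MXRA8*, *RRAGD*, *ABCB6* and *SULT2B1*. Each of these 9 lost its call without at least 1 of the 4 IFN-β libraries. Without GFP sgRNA 2 the edgeR adjusted p was 0.0565 for *NTN3*, 0.114 for *VAV3*, 0.149 for *S100P*, 0.088 for *F5*, 0.153 for *EN2*, 0.0875 for *MXRA8*, 0.216 for *RRAGD* and 0.0734 for *SULT2B1*. Without ADAR sgRNA 2 it was 0.109 for *VAV3*, 0.132 for *S100P*, 0.0997 for *EN2*, 0.0677 for *MXRA8*, 0.525 for *RRAGD* and 0.249 for *ABCB6*. *VAV3* (0.0945) and *EN2* (0.166) lost it without ADAR sgRNA 1 too, and *EN2* (0.0541), *RRAGD* (0.0591) and *ABCB6* (0.116) without GFP sgRNA 1. Without that ADAR sgRNA 2 library *NTN3* went to −3.35, *EN2* to −2.52, *SULT2B1* to −2.42 and *RRAGD* to −0.95.

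Metabolic and antioxidant lists fell by small steps at high expression. Of 20 NRF2 targets 13 fell and none rose, with a median of −0.35. The sulfiredoxin *SRXN1* went from 21.2 and 29.6 to 12.3 and 11.6 CPM (log2 fold change −1.10, edgeR adjusted p = 3.26e-05). The aldo-keto reductases *AKR1C1* (−0.76, 426 and 496 to 286 and 257 CPM) and *AKR1C3* (−0.71) fell. *AKR1C1* and *AKR1C2* are close copies, and reads that align to both are not counted. Of the 13 falls, 4 remained without ADAR sgRNA 2 and 8 without GFP sgRNA 2.

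In glycolysis and glucose transport 10 of 19 fell and none rose, with a median of −0.31. The transporter *SLC2A3* fell from 41.4 and 48.9 to 23.6 and 20.3 CPM (log2 fold change −1.05, edgeR adjusted p = 5.73e-05) and *ALDOA*, aldolase, from 2050 and 2200 to 1700 and 1490 CPM (−0.41, edgeR adjusted p = 0.00387, and 0.107 without ADAR sgRNA 2). With vehicle *SLC2A3* had −1.09 (edgeR adjusted p = 0.00893), and the difference between treatments was 0.04 (edgeR adjusted p = 0.966). Of the 10 falls 2 remained without ADAR sgRNA 2 and 5 without GFP sgRNA 2. Nuclear genes of oxidative phosphorylation fell in 6 of 26, and none of these calls remained without ADAR sgRNA 2 or without GFP sgRNA 2. Of 15 genes of the mitochondrial genome none passed by edgeR, and at an unadjusted p under 0.05 or by DESeq2 the count was likewise 0.

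Genes of DNA replication fell in 12 of 30 with none higher, and the median was −0.27. *CCNE1*, cyclin E1, fell from 37.5 and 30.4 to 20 and 20.2 CPM (log2 fold change −0.75, edgeR adjusted p = 0.000759). *PCNA*, the sliding clamp, fell from 399 and 345 to 287 and 245 CPM (−0.48, edgeR adjusted p = 0.00149) and the helicase subunit *MCM5* from 195 and 204 to 155 and 132 CPM (−0.48, edgeR adjusted p = 0.00147). Mitosis genes fell in 5 of 30 (16.7%, against 6.19% of all genes tested), with *AURKB* (−0.43) and *PLK1* (−0.41) among them. Without ADAR sgRNA 2, 1 of the 12 and none of the 5 calls remained, and without GFP sgRNA 2, 6 and 5.

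Other falls concerned chaperones, keratins and ribosomal proteins. *HSPA1A* fell from 153 and 180 to 91.3 and 79.7 CPM (log2 fold change −0.97, edgeR adjusted p = 8.03e-08) and *HSPA1B*, its near-identical copy, from 139 and 165 to 79.5 and 65.5 CPM (−1.07, edgeR adjusted p = 7.19e-08). In that list 5 of 16 genes fell and 2 rose, *DNAJB4* (0.97) and *HSPB8* (0.65, and 0.47 with an edgeR adjusted p of 0.267 without ADAR sgRNA 2). *CDH1*, E-cadherin, fell from 44.5 and 50.2 to 24.3 and 32 CPM (−0.74, edgeR adjusted p = 0.0018), *KRT8* from 2440 and 3200 to 2120 and 1930 CPM (−0.48) and *KRT18* by 0.44. Without GFP sgRNA 2 the keratins had −0.27 (edgeR adjusted p = 0.083) and −0.21 (edgeR adjusted p = 0.198). In this list of epithelial and mesenchymal genes 3 of 15 fell, 3 rose and 9 did not pass. The mesenchymal factors *ZEB2* (1.49), *SNAI2* (1.31) and *ZEB1* (0.52) rose, whereas *TWIST1* (−1.26), *SNAI1* (−0.12), *VIM* (0.18) and *CDH2* (0.29) did not pass. *ZEB1* lost its call without ADAR sgRNA 1 (edgeR adjusted p = 0.0818), ADAR sgRNA 2 (0.0832) or GFP sgRNA 2 (0.229) and with the offsets (0.0918).

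Of 81 cytosolic ribosomal proteins 9 fell (11.1%, against 6.19% of all genes tested) and none rose. They were led by *RPS15* (−0.52, 378 and 402 to 294 and 250 CPM), which had −0.20 with the GC and length offsets (edgeR adjusted p = 0.117). Only 1 of the 9 calls remained without ADAR sgRNA 2 and 1 with the GC and length offsets, under which 4 members rose and 8 fell. Processed pseudogenes, 95 of which fell, are intronless copies of parents such as ribosomal protein and keratin genes. Reads that align to both copy and parent are not counted, so the counts of these pseudogenes are uncertain. Replication-dependent histones were mixed, with 10 rises and 4 falls among 51, and with the offsets 28 rose and none fell (their median GC content was 58.5%).

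Among long non-coding RNAs with a symbol the largest rises were *CHILL1* (1.69 and 2.61 to 10.6 and 15.8 CPM, log2 fold change 2.60, edgeR adjusted p = 2.31e-07), *LRRC8D-DT* (2.11), *HIF1A-AS3* (2.07), *STARD13-AS* (2.01) and *LINC00973* (1.95). *CHILL1*, *HIF1A-AS3* and *LINC00973* kept their calls without any of the 4 IFN-β libraries. *LRRC8D-DT* (edgeR adjusted p = 0.215) and *STARD13-AS* (edgeR adjusted p = 0.17) did not pass without ADAR sgRNA 2, nor *LRRC8D-DT* without GFP sgRNA 2 (edgeR adjusted p = 0.132). The largest falls were *FOXF2-DT* and *RAI1-AS1* (both −1.79), *MIR210HG* (−1.52), the host transcript of a hypoxia-induced microRNA, *RAET1E-AS1* (−1.34) and *MIR31HG* (−0.88). None of these 5 passed without ADAR sgRNA 2, with adjusted p from 0.0813 to 0.417 (edgeR), nor without GFP sgRNA 2, from 0.123 to 0.204. Without ADAR sgRNA 1, *MIR210HG* (0.153), *RAET1E-AS1* (0.0575) and *MIR31HG* (0.0503) did not pass either, nor *MIR210HG* without GFP sgRNA 1 (0.0637). The strand setting of the counting is not given in the sources used here, so reads of antisense transcripts cannot be told apart from those of the gene opposite.

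The same KO was then set against vehicle-treated A549 cells, which addresses whether the effect depends on added IFN-β. With vehicle 19 of 15449 genes passed (0.123%), 5 higher (0.0324%) and 14 lower (0.0906%), and 642 had an unadjusted p under 0.05 (11 passed by DESeq2). The difference between the 2 effects passed for 780 genes (5.05%), 629 positive and 151 negative. With the GC and length offsets it was 628 positive and 444 negative, and without the ADAR sgRNA 2 library with IFN-β 253 genes passed. Of the 1666 rises 613 (36.8%) had a positive difference past the threshold, and of the 956 falls 133 (13.9%) a negative difference. For the 15 largest rises the median log2 fold change was 4.69 with IFN-β and 0.26 with vehicle, and 8 had a difference past the threshold. These 15 include the 4 interferon genes, which had almost no reads with vehicle. For the 15 largest falls the median was −1.67 with IFN-β and −0.96 with vehicle. The rises and falls were chosen by their IFN-β values, which also enter the difference. These shares and medians are therefore no separate test of dependence on IFN-β.

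*EGR1* was the rise that was also called with vehicle (2.85, edgeR adjusted p = 0.0172), and its difference between treatments was 5.49 (edgeR adjusted p = 0.000595). For *FOSB* the difference was 4.94 (edgeR adjusted p = 5.64e-08), for *CXCL8* 4.88 (edgeR adjusted p = 2.32e-09) and for *ATF3* 3.55 (edgeR adjusted p = 3.94e-08). The interferon genes had at most 1 read in the 4 vehicle libraries together, and the test of their difference did not pass (edgeR adjusted p = 0.0857 for *IFNL1* and 1 for the other 3).

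In NCI-H1650 cells without added interferon, *ADAR* KO gave 1250 calls among 14530 genes (8.6%), 898 higher (6.18%) and 352 lower (2.42%). These are separate libraries of another line, but their labels name the same sgRNAs as those of A549. Effects of a particular sgRNA may therefore be shared between the lines. Of the 1666 A549 rises, 1599 were tested in NCI-H1650, where 443 rose (27.7%) and 9 fell, and these 443 were 56.5% of the 784 NCI-H1650 rises tested in A549. Of the 956 falls 860 were tested there and 35 fell (4.07%), which were 10.3% of 339. The difference between these shares of rises and falls was not tested.

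Of the 15 largest A549 rises 13 were tested in NCI-H1650 and 13 rose, with a median log2 fold change of 1.83. *EGR1* had 8.34 in A549 with IFN-β and 1.83 in NCI-H1650 (edgeR adjusted p = 4.76e-15), *CXCL8* 4.69 and 1.78 (edgeR adjusted p = 3.85e-09), *ATF3* 4.57 and 1.90 (edgeR adjusted p = 3.6e-18) and *TNFAIP3* 3.07 and 1.73 (edgeR adjusted p = 4.06e-16). *IFNB1* rose there by 2.85 (edgeR adjusted p = 1.92e-08). Of the 15 largest falls 6 were tested in NCI-H1650 and none passed by edgeR or DESeq2 (2 had an unadjusted p under 0.05), and *SLFN11* and *NTS* were among the 9 not tested. NF-kB genes rose in 15 of 19 and core interferon-stimulated genes in 9 of 42 in that line. The lines differ in IFN-β treatment and in time after transduction as well as in origin, and these cannot be told apart.

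**Figure D4:**
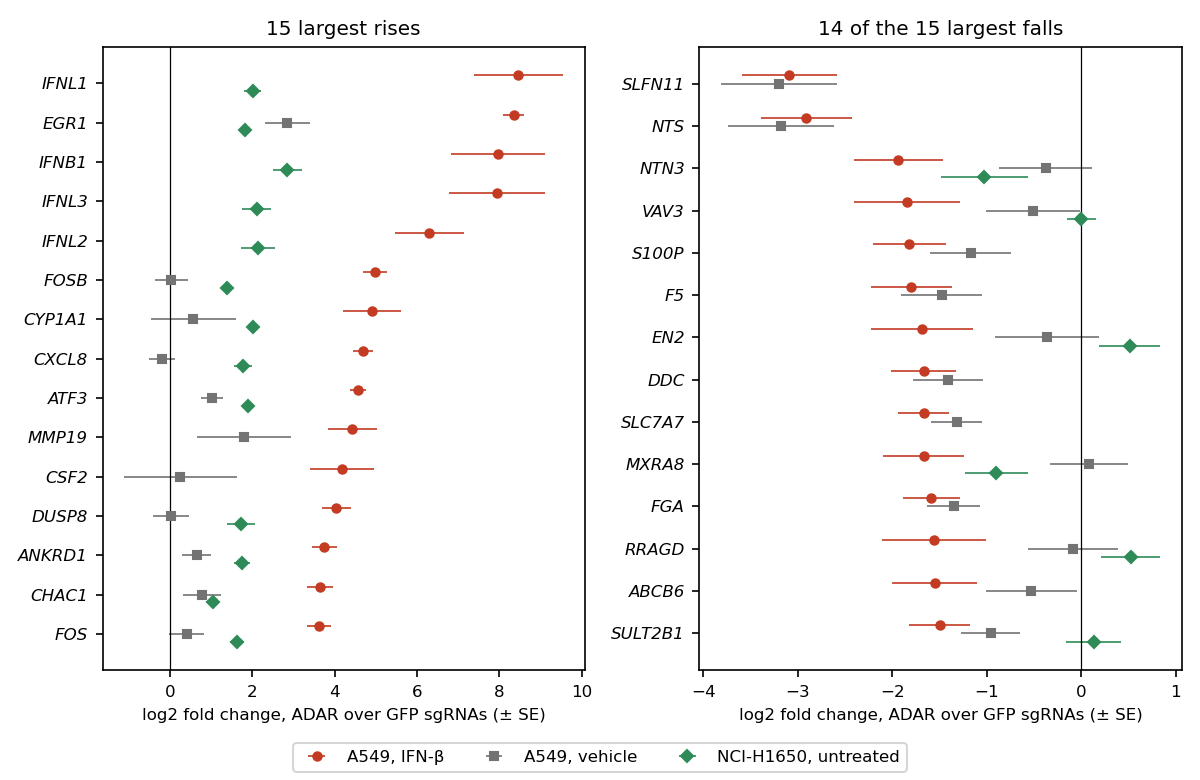
Log2 fold change between *ADAR* and *GFP* sgRNAs (x axis, bars are standard errors) for the 15 largest rises (left) and 14 of the 15 largest falls (right) of A549 with IFN-β (red circles), beside A549 with vehicle (grey squares) and untreated NCI-H1650 (green diamonds). The rises have a median of 4.69 with IFN-β and 0.26 with vehicle and are positive in NCI-H1650, and *SLFN11*, *NTS* and *FGA* are low with vehicle and with IFN-β. Vehicle points of the 4 interferon genes are left out since these had at most 1 read, though the vehicle median of 0.26 counts them. Missing diamonds are genes not tested.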

How the data were processed

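RNA was depleted of ribosomal RNA and sequenced as paired ends from a directional kit. The authors deposited raw counts of reads per gene for each library, and their notes name STAR, HTSeq, DESeq2 and build hg19 without versions. The strand setting and the annotation release are not given in the sources used here. Reads that align to several places are not counted, which lowers near-identical genes, and 5 summary lines per file were left out.

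Counts were scaled by TMM over the 8 A549 libraries, filtered by group and tested with edgeR 4.0.16 (R 4.3.3, limma 3.58.1, quasi-likelihood F test, 1 model of 4 groups, prior count 0.125). P values were adjusted by Benjamini-Hochberg over all genes tested, two-sided, with a threshold of 0.05. NCI-H1650 was fitted alone. DESeq2 1.42.0, other scalings and filters, a replicate block, GC and length offsets and each library left out were alternatives. Exact Poisson-based intervals and 3-read floors cover counting error only. Symbols, biotypes and promoters came from RefSeq and annotation tables. On simulated data for the A549 IFN-β comparison (15043 genes, 200 changed), 85% of genes changed by 1 log2 unit and 99% by 2 were recovered, with 10 false calls. The simulated counts were drawn independently for each gene, without the GC-linked differences seen between the real libraries. Changes smaller than 1 log2 unit were not simulated. The simulation therefore checks the code and does not measure the false calls in the real data.

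Named were *ADAR*, *EIF2AK2*, *IFIH1* and *IFNB1*, the 15 largest rises and falls past the threshold (5 for non-coding genes and for differences between treatments), and up to 4 members per list and direction or any member of a list of up to 15. Further members were named after their values were seen. The comparison, its members and the gene lists were chosen with earlier results of these data known. A few genes are not reported here.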

Additional observations from a re-analysis of the deposited data

Results flagged for a closer look

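The effect of *ADAR* KO differed between IFN-β and vehicle in 780 genes by the interaction test of edgeR (adjusted over all genes tested). Among the genes with the largest changes, the difference in log2 fold change was 5.49 for *EGR1*, 4.94 for *FOSB*, 4.88 for *CXCL8*, 4.01 for *DUSP8*, 3.55 for *ATF3*, 3.21 for *FOS*, 3.1 for *ANKRD1* and 2.86 for *CHAC1*. It was 4.03 for *NEURL3*, a ubiquitin ligase at 0.188 and 0.745 CPM in the GFP libraries with IFN-β and 2.21 and 5.05 CPM in the ADAR libraries. With IFN-β the log2 fold change of *NEURL3* was 2.86, and 2.11 without ADAR sgRNA 2. *NEURL3* may have passed the read filter only through the ADAR libraries. Negative differences were −1.73 for *BRICD5*, −1.72 for *REEP6*, −1.19 for *PANX2* and −1.15 for *TMEM160*. Their GC contents were 65.4% to 72.2%, against a median of 48.5% for all genes tested. With the GC and length offsets the log2 fold change with IFN-β went from −0.98 to −0.44 for *TMEM160*. It went from −1.46 to −1.09 for *BRICD5* and from −1.10 to −0.91 for *PANX2*. *REEP6* did not pass with IFN-β alone (edgeR adjusted p = 0.0547). The genes were picked by their IFN-β values or by the difference itself, and what these differences reflect was not tested.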

How the results depend on the processing

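With 2 libraries per group, the counts depended on single libraries. With IFN-β 2622 genes passed, 689 to 3581 with 1 A549 library left out, the lowest without ADAR sgRNA 2 (689), then without GFP sgRNA 2 (1464). Requiring a 2-fold change left 564. The difference between treatments gave 780, 253 to 1663 with a library left out (253 without ADAR sgRNA 2 and 1663 without GFP sgRNA 1 with IFN-β, 442 and 418 without ADAR sgRNA 1 and 2 and 326 without GFP sgRNA 2 with vehicle). NCI-H1650 gave 1250, 542 to 1110 with a library left out (542 and 575 without GFP sgRNA 1 and 2), and 413 by DESeq2. Other scalings, filters, the 4 libraries alone and DESeq2 gave 2055 to 2627 with IFN-β. The share of calls that were higher went from 63.5% to 54.8% with GC and length offsets (chosen after seeing the data), from 80.6% to 58.6% for the difference between treatments, and in NCI-H1650 from 71.8% to 60.4% (82.8% by DESeq2). *H3C13* and *RPL36* reversed with offsets, to 0.04 and 0.01, with and without the replicate block. A replicate block gave 2490 calls with IFN-β, 707 for the difference between treatments (824 with the block by sgRNA) and 1096 in NCI-H1650. Between GFP and ADAR libraries the replicate numbers showed no pairing (correlation of deviations −0.0784 with IFN-β, −0.0172 with vehicle and −0.0163 in NCI-H1650). Vehicle and IFN-β libraries of an sgRNA are paired by design, with correlations of −0.0592 for GFP and −0.00477 for ADAR. Genes under about 1 CPM rest on few reads.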
